A study of Mus musculus with 44 samples.

Results

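Liver and whole brain of old mice on a control diet (CD) were compared by RNA sequencing after removal of ribosomal RNA. The comparison took 16 of the 44 libraries of the series, namely all 8 livers and all 8 brains of male C57BL/6 mice that were 26 months old and had been on CD, a diet with most of its calories from carbohydrate, fed ad libitum from middle age. The labels name no allele, transgene or drug for either group, and diet, age, strain and sex were shared by both, so tissue was the only label that separated them. The livers and brains carry replicate numbers from 1 to 8, but the labels do not say whether a liver and a brain of the same number came from the same mouse. The other libraries of the series were used only as follows: the 8 livers and 8 brains of mice of the same age on the cyclic ketogenic diet (KD, alternating each week with CD, collected during a CD week) served as libraries in which the result could be looked up again. All values were made from bulk tissue, and a whole brain pools regions as different as cortex, cerebellum and brain stem.

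Liver and brain divide the handling of fuel between them. Hepatocytes, which make up most of the liver, take up glucose, amino acids and fatty acids from the portal blood, release glucose between meals, turn ammonia into urea, make bile acids and secrete nearly all plasma proteins. They also build ketone bodies from fatty acids and export them, because hepatocytes make little of the transferase needed to burn them. The brain lives on glucose and, when glucose is short, on ketone bodies. Its neurons are specialised for releasing and receiving transmitters, its oligodendrocytes wrap axons in myelin, its astrocytes recycle transmitters and potassium, and its microglia are the resident macrophages, as Kupffer cells are in the liver. Many enzymes that both organs need exist as pairs encoded by separate genes, one used in liver and another in brain, called isozymes.

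Total counts per library ranged from 8090281 to 12682087 in liver and from 7447742 to 12744415 in brain, and levels are given as CPM, counts per 1000000 counts of the library after TMM scaling. Some libraries stood apart. Liver replicate 1 and brain replicate 5 had a count for 44980 and 44304 genes, against 25030 to 28259 in the other livers and 32957 to 41017 in the other brains, and the predicted gene Gm10800, not a member of any list, held 1.61% and 1.22% of their counts. It held 0.00203 to 0.00580% of the counts of the other livers and 0.0551 to 0.483% of those of the other brains. Olfactory, vomeronasal and taste receptor genes together had 1783 and 1402 counts per 1000000 in these 2 libraries. The other livers had 163.7 to 240.1 and the other brains 212.5 to 575. Liver replicates 3, 5, 6 and 7 had 1.68 to 1.91% of their counts in genes of the mitochondrial genome, against 3.0 to 3.97% in the other 4 livers and 2.44 to 2.79% in the brains. The same 4 livers had less RNA of hepatocyte markers and more RNA of macrophage and blood cell markers than the other livers, as given with those genes. For named genes whose call changed or whose fold change moved by more than 2-fold without these libraries, the value without them stands beside the main one; the fit without the 4 livers was added after the data were seen. Of 131 named genes tested, 62 moved by more than 1.5-fold without the 4 livers and 16 without liver replicate 1 and brain replicate 5. In bulk tissue, fewer cells of a type and less RNA per cell cannot be told apart.

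The markers of each organ were where the labels put them. All 12 hepatocyte markers were higher in liver, with 3.75% of liver counts and 0.0234% of brain counts, and all 15 general neuron markers were higher in brain, with 0.736% of brain counts and 0.00368% of liver counts. The share of the hepatocyte list ran from 0.00381 to 0.0563% over the brains. That list includes transthyretin (Ttr), which also had RNA in brain, as given below, so its brain share is not a measure of hepatocyte RNA. Albumin (Alb, ENSMUSG00000029368, chr5:90460897-90476602), the main protein of plasma, lay between 9158 and 20760 CPM (median 15220) in liver and between 0.0708 and 1.45 CPM (median 0.363) in brain. Synaptosome-associated protein 25 (Snap25, ENSMUSG00000027273, chr2:136713453-136782428), a component of the machine that fuses synaptic vesicles, lay between 0 and 3.42 CPM (median 0.0440) in liver and between 1197 and 1687 CPM (median 1544) in brain. No liver reached the brains in Snap25 and no brain reached the livers in Alb; the liver with the highest Snap25 was replicate 1, the library rich in Gm10800.

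The promoter windows below are examples and do not stand for the sets their genes belong to. They are 4 of the 300-base windows (250 bases before the start to 50 after, RefSeq, GRCm38.p6), for genes on which later sentences turn. Motifs were searched as exact letters on both strands, and capitals mark the matches. Gc, the vitamin D binding protein of plasma, had on the minus strand at chr5:89457849-89458148 a match to the motif of the liver factor HNF1 (GTTAAT, any base, ATTAA) 52 bases before the start, and no CG dinucleotide.
Gc: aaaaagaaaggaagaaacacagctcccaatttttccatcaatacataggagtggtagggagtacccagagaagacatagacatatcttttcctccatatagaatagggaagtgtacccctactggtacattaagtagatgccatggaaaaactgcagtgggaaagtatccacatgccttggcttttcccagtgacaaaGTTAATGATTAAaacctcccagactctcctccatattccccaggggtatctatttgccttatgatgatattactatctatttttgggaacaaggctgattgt
Hc, complement component C5, had on the minus strand at chr2:35061363-35061662 an HNF1 match 80 bases and a TATAAA match 239 bases before the start.
Hc: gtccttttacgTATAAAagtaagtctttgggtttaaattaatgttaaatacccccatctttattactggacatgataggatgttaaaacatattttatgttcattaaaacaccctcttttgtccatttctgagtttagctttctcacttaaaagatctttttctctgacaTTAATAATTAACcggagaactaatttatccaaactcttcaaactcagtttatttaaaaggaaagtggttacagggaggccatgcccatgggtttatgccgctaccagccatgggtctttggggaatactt
Sst, the peptide somatostatin of inhibitory neurons, had on the minus strand at chr16:23890795-23891094 the cyclic AMP response element TGACGTCA, 48 bases before the start.
Sst: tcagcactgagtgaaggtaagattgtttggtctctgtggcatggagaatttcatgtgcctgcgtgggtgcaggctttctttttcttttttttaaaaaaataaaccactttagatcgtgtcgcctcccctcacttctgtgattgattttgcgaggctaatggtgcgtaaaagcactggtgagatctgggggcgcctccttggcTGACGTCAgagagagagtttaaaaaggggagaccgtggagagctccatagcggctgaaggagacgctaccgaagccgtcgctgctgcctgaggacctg
Ppia, cyclophilin A, a folding enzyme found at a like level in both organs, had on the plus strand at chr11:6415617-6415916 a TATAAA match 29 bases before the start, 4 GC boxes (GGGCGG) and 43 CG dinucleotides.
Ppia: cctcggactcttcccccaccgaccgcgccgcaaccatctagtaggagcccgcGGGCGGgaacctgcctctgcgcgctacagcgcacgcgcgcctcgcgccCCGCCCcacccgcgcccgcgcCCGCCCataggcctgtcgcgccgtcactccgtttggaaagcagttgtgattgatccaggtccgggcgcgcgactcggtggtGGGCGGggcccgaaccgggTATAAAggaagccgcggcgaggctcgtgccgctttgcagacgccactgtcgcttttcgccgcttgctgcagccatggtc
Among all 32851 RefSeq promoter windows, the HNF1 motif was found in 0.0609%, TGACGTCA in 1.79%, TATAAA in 13.6% and GGGCGG in 35.7%. Over the windows of all genes tested these were 0.0548%, 2.66%, 8.35% and 56%. In the sets defined next, the HNF1 motif was in 0.719% of liver-restricted windows and TGACGTCA in 2.55% of brain-restricted windows. TATAAA was in 5.71% and GGGCGG in 65.9% of like-level windows. The windows matched 70.6% of the liver-restricted genes and 52.3% of the brain-restricted genes defined next, too few for a comparison of motif or GC content between the sets, and a match is a description of letters and not a bound site.

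Of 20463 genes tested with the quasi-likelihood test of edgeR, 15760 (77.0%) differed between the organs at an adjusted p under 0.05. Of these, 7364 (36.0% of those tested) were higher in liver and 8396 (41.0%) higher in brain, and 4940 (24.1%) and 6311 (30.8%) were so by more than 2-fold. The median log2 fold change over all genes tested, liver minus brain throughout, was -0.07. In 4354 genes (21.3%) every liver was above every brain, and in 6004 (29.3%) every brain was above every liver. With so many calls, a call by itself says little about a gene, and the text therefore turns on size. A gene was counted as restricted to an organ when it was called, at least 32-fold higher there and at 1 CPM or more in each of its 8 libraries. Liver had 798 such genes (3.90%) and brain 1964 (9.60%). At the other end, 6592 genes were at 10 CPM or more in all 16 libraries, and for 1402 of them (6.85% of those tested) the 95% interval of the log2 fold change lay within 0.5 of zero on both sides, which is called a like level here.

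**Figure D1:**
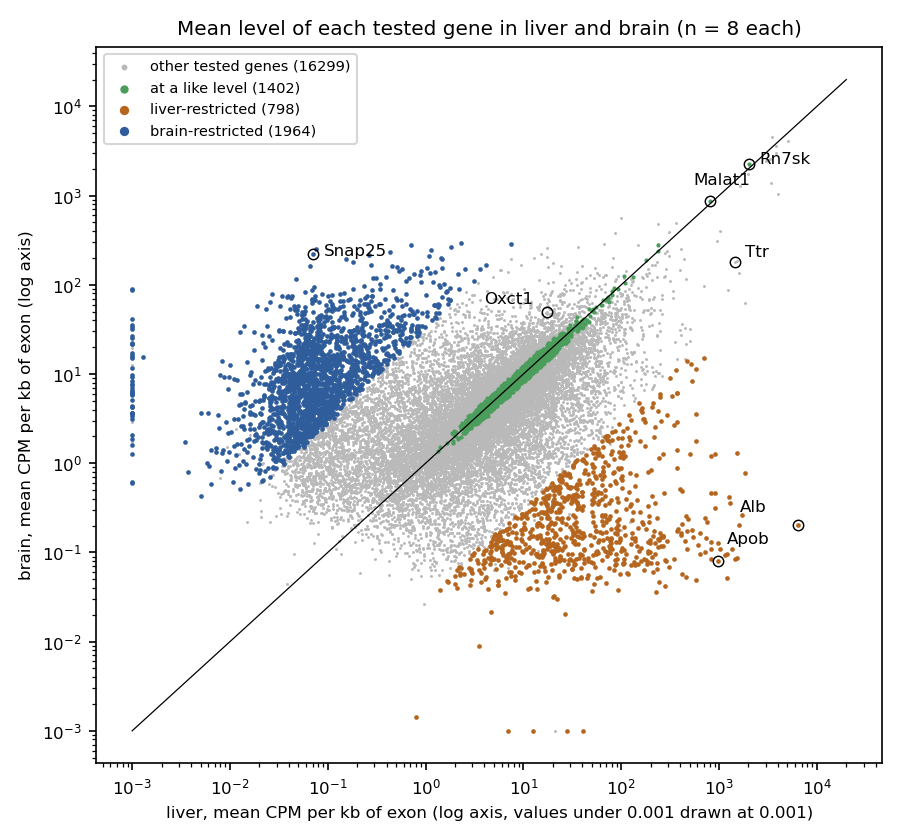
Mean level of each gene tested in 8 livers (horizontal axis) and 8 brains (vertical axis), as CPM per kb of exon on log axes with a floor of 0.001. Coloured points are the 798 liver-restricted, 1964 brain-restricted and 1402 like-level genes, and the grey points are the other 16299 genes; Alb and Apob lie far to the right of the diagonal, Snap25 far above it, and Malat1 and Rn7sk on it.

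Liver had more of its RNA in its highest genes than brain, as the scatter of mean levels shows. The 10 highest genes of a liver held 8.12 ± 1.59% of its counts (SD, n = 8) and those of a brain 4.42 ± 0.382%, and the 100 highest 23.3 ± 4.11% and 13.9 ± 0.428%. Both differences were at the smallest p that an exact two-sided permutation test of 8 against 8 allows, 1.55e-04, or 1.98e-04 after adjustment over 51 shares. Protein-coding genes were 675 of the 798 liver-restricted genes (84.6%) and 1242 of the 1964 brain-restricted genes (63.2%). The brain set held more unclassified and noncoding models, with 335 genes of the annotation class TEC, 106 antisense RNAs, 95 processed pseudogenes and 83 long intergenic RNAs, against 28 antisense and 32 long intergenic RNAs in the liver set. All brains had a larger share of counts in Gm10800 than every liver other than replicate 1. Whether a like signal adds to these models was not tested. Of the 1402 genes at a like level, 1378 were protein-coding.

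Counts of the restricted genes in the other organ varied by library. Liver-restricted genes held 15.4 to 29.1% of the counts of a liver, with 28.4 to 29.1% in replicates 1, 2, 4 and 8 and 15.4 to 20.2% in replicates 3, 5, 6 and 7. In the brains they held 0.134 to 0.236%, the highest in replicate 5. Brain-restricted genes held 18.1 to 21.2% of brain counts, a narrower range. In the livers they held 0.0698 to 0.149% except in replicate 1, with 0.372%, where 1885 of the 1964 genes had at least 1 count, against 765 to 1104 in the other livers. Accordingly 277 brain-restricted genes had at most 3 counts summed over all livers, but 1201 had so when liver replicate 1 was left out and the genes were chosen again. In the other direction 13 liver-restricted genes were not seen in brain in this sense, or 34 without brain replicate 5.

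**Figure D2:**
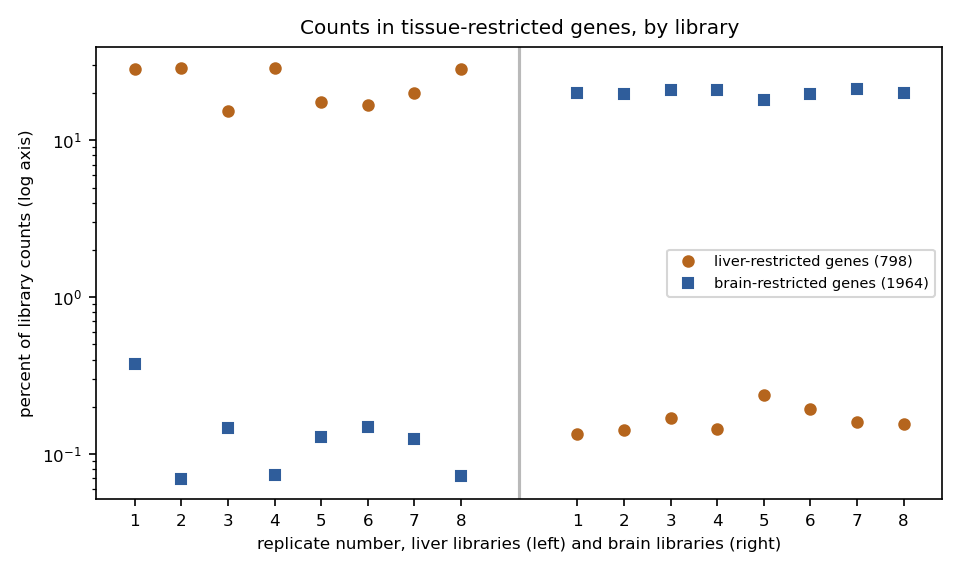
Percent of the counts of each of the 16 libraries in the liver-restricted and in the brain-restricted genes, on a log axis, 1 point per library. Each set holds 15.4% or more of its own organ and under 0.4% of the other, and liver replicate 1 is the highest liver for the brain-restricted genes.

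The KD libraries, which had no part in choosing the genes, gave the same direction for nearly all of them. Of the 798 liver-restricted genes, 791 were tested in the KD libraries and all 791 were called higher in liver there, and 688 (86.2%) met the whole definition. Of the 1964 brain-restricted genes, 1934 were tested and 1932 called higher in brain, but 941 (47.9%) met the whole definition. Of the like-level genes 1038 (74.0%) were at a like level in KD mice too. The difference between the organs was then compared between the diets as an interaction of tissue and diet over 23556 genes. edgeR called 3 genes at an adjusted p under 0.05, the predicted genes Gm19531, Gm38359 and Gm10471, each with an adjusted p of 0.0418, and 5642 genes had an unadjusted p under 0.05. In each of the 3 the liver minus brain log2 fold change was more positive in KD. For a gene higher in brain, such a shift can be a smaller gap between the organs. These 3 genes are outside the rule for named genes and were chosen after their values were seen. In the same test DESeq2 called 1112 genes with a difference shifted toward liver in KD and 269 with one shifted toward brain, and the number of calls thus depended on the tool.

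Proteins that hepatocytes secrete into plasma made up the top of the liver set. All 31 tested carriers and protease inhibitors were higher in liver, the median log2 fold change being 11.59, and 27 were restricted to it; together they held 5.30 ± 0.936% of liver counts and 0.0367 ± 0.0190% of brain counts. Alb had the largest fold change of them (log2 fold change 14.93 ± 0.63, adjusted p = 4.33e-12). Gc lay between 1376 and 4532 CPM (median 2982) in liver and between 0 and 1.37 CPM (median 0.219) in brain, with a log2 fold change of 13.03 ± 0.71 and an adjusted p of 7.33e-11. Alpha-2-HS-glycoprotein (Ahsg), a carrier of mineral in plasma, lay between 2280 and 3653 CPM (median 3030) in liver and between 0 and 0.799 CPM (median 0.168) in brain, a log2 fold change of 13.61 ± 0.51 and an adjusted p of 1.23e-12. Hemopexin (Hpx), which binds free heme, followed with a log2 fold change of 11.85 ± 0.52. The groups did not come near each other in any of these 4 genes. Transthyretin (Ttr), the carrier of thyroid hormone, was the exception in size: it lay between 522 and 2827 CPM (median 1802) in liver and between 26.2 and 541 CPM (median 144) in brain, and the groups overlapped. Its brain RNA is known to come mainly from the choroid plexus, and it had a log2 fold change of 3.0 ± 0.62 and an adjusted p of 3.46e-04.

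The blood clotting and complement systems followed the same direction. Of 22 coagulation genes, 21 were higher in liver and 19 restricted to it, with a median of 9.40; fibrinogen alpha chain (Fga) lay between 2237 and 4411 CPM (median 3597) in liver and between 0 and 1.03 CPM (median 0.134) in brain, a log2 fold change of 13.62 ± 0.66 and an adjusted p of 2.05e-11. Von Willebrand factor (Vwf), made by endothelium rather than by hepatocytes, was the 1 member that was not called, at between 18.4 and 113 CPM (median 22.8) in liver and between 11.7 and 180.4 CPM (median 35.1) in brain, and its log2 fold change of -0.48 ± 0.61 was 0.07 without brain replicate 3 and 0.39 in the KD libraries. All 27 complement genes were higher in liver and 18 were restricted to it, with a median of 6.77. Complement C3, on which all activation routes converge, lay between 6368 and 9069 CPM (median 8051) in liver and between 3.87 and 10.2 CPM (median 6.14) in brain, a log2 fold change of 10.19 ± 0.29 and an adjusted p of 8.67e-14, and Hc had a log2 fold change of 10.74 ± 0.68. The subunits of C1q, which macrophages and microglia make, differed less. C1qb lay between 37.7 and 1053 CPM (median 450.1) in liver and between 28.7 and 41.9 CPM (median 36.4) in brain, with overlapping groups and a log2 fold change of 3.75 ± 0.67 and an adjusted p of 7.87e-05; its level was between 37.7 and 169 CPM in livers 1, 2, 4 and 8 and between 731 and 1053 CPM in livers 3, 5, 6 and 7, and without the latter its log2 fold change was 1.20.

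Apolipoproteins carry lipids between organs. Of 26 tested genes of lipoprotein handling, 23 were higher in liver and 2 in brain. Apolipoprotein B (Apob), the scaffold of VLDL, lay between 5995 and 21330 CPM (median 13910) in liver and between 0.142 and 3.42 CPM (median 0.939) in brain, and had the largest log2 fold change of the list, 13.60 ± 0.74. Apolipoprotein A1 (Apoa1), the main protein of HDL, lay between 1053 and 3378 CPM (median 2041) in liver and between 0.171 and 0.685 CPM (median 0.258) in brain (log2 fold change 12.69 ± 0.39). Apolipoprotein E (Apoe) is made by hepatocytes and by astrocytes: at between 1553 and 4884 CPM (median 3587) in liver and between 350.1 and 512 CPM (median 380.5) in brain, it was high in both organs and still 8.27-fold higher in liver as a ratio of mean CPM (log2 fold change 3.05 ± 0.25, adjusted p = 1.15e-08). Apod went the other way, at between 0 and 1.23 CPM (median 0) in liver and between 167 and 386 CPM (median 200.3) in brain, a log2 fold change of -10.54 ± 0.73 and an adjusted p of 1.14e-09, with 12 counts in all livers together, and was at -12.24 without liver replicate 1 and brain replicate 5. All livers were above all brains for Apob, Apoa1 and Apoe, and all brains above all livers for Apod.

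Bile acid synthesis, urea formation and drug metabolism are functions of hepatocytes. Of 19 bile acid genes 18 were higher in liver and 15 restricted to it; the exception was Cyp46a1, the neuronal enzyme that turns cholesterol into 24-hydroxycholesterol, at between 0.647 and 9.35 CPM (median 4.05) in liver and between 37.8 and 127 CPM (median 80.1) in brain (log2 fold change -4.26 ± 0.61, adjusted p = 7.09e-06). Of 31 genes of urea formation and amino acid breakdown, 28 were higher in liver and 2 in brain. Carbamoyl phosphate synthetase (Cps1), the entry enzyme of the urea cycle, lay between 1617 and 7339 CPM (median 4227) in liver and between 0.598 and 3.31 CPM (median 0.897) in brain, a log2 fold change of 11.74 ± 0.60 and an adjusted p of 3.98e-11. Glutamine synthetase (Glul), used by liver to trap ammonia and by astrocytes to recycle glutamate, was not called: it lay between 242 and 1442 CPM (median 811) in liver and between 863 and 1076 CPM (median 941) in brain, with a log2 fold change of -0.27 ± 0.31 and a 95% interval from -0.93 to 0.38, which is wider than the like-level band.

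All 31 tested genes of drug and steroid metabolism were higher in liver, 18 of them restricted, with a median of 9.16. The ethanol-oxidising Cyp2e1 varied widely between livers, at between 30.6 and 5546 CPM (median 2808) in liver and between 0.261 and 1.60 CPM (median 0.825) in brain, yet no brain reached the lowest liver (log2 fold change 11.55 ± 1.16, adjusted p = 1.11e-07). Sugar release followed: 14 of 19 genes of gluconeogenesis and glycogen were higher in liver, among them phosphoenolpyruvate carboxykinase (Pck1) at between 617 and 1915 CPM (median 1120) in liver and between 0 and 0.799 CPM (median 0.227) in brain and a log2 fold change of 12.01 ± 0.60. The 3 that were higher in brain included the brain and muscle forms of glycogen phosphorylase, Pygb (-1.87 ± 0.39, or -3.35 without livers 3, 5, 6 and 7) and Pygm (-3.80 ± 0.31). All 22 liver transcription factors were higher in liver and 16 restricted to it. Hnf4a, a nuclear receptor that sustains the hepatocyte program, lay between 269 and 1108 CPM (median 723) in liver and between 0 and 1.37 CPM (median 0.165) in brain, a log2 fold change of 11.03 ± 0.70 and an adjusted p of 4.18e-10.

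Most genes of the synapse were higher in brain. Of 26 genes of vesicle release, 22 were higher in brain, against 41.0% of all genes tested, and 16 restricted to it, with a median of -5.53 and 1.23% of brain counts against 0.0435% of liver counts. Snap25 had a log2 fold change of -11.82 ± 0.95 (adjusted p = 8.23e-09), or -14.27 without liver replicate 1 and brain replicate 5, and synaptotagmin 1 (Syt1), the calcium sensor of release, lay between 1.30 and 18.1 CPM (median 6.32) in liver and between 697 and 1643 CPM (median 1109) in brain (log2 fold change -7.33 ± 0.49, adjusted p = 8.11e-10). The 3 members higher in liver were Snap23, Vamp8 and Stx4a, the relatives of synaptic SNARE proteins that serve secretion in cells without synapses; Vamp8 lay between 33.2 and 50.9 CPM (median 42.7) in liver and between 2.27 and 3.83 CPM (median 2.90) in brain and had a log2 fold change of 3.81 ± 0.15, while its synaptic relative Vamp2 lay between 54.1 and 77.2 CPM (median 66.2) in liver and between 558 and 942 CPM (median 739) in brain with -3.53 ± 0.14. Snap23 was 3.81-fold higher in liver (1.93 ± 0.16 on the log2 scale). The family thus split by organ, with no library of the lower organ reaching the higher one in Snap25, Syt1, Snap23, Vamp8 or Vamp2.

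Every one of 30 glutamate and GABA receptor genes and of 25 voltage-gated channel genes tested was higher in brain, with medians of -7.50 and -6.71 and with 25 and 20 restricted genes. Among receptors the AMPA receptor subunit Gria1 lay between 0 and 3.56 CPM (median 0.163) in liver and between 289 and 593 CPM (median 453) in brain, a log2 fold change of -9.73 ± 0.80 and an adjusted p of 1.04e-08, or -11.34 without liver replicate 1 and brain replicate 5, and the metabotropic Gabbr2, at between 3.41 and 89.96 CPM (median 34) in liver and between 251 and 440.1 CPM (median 340.2) in brain, the smaller one of -3.01 ± 0.49. Kcna1, a potassium channel of axons, lay between 0 and 2.06 CPM (median 0) in liver and between 245 and 301 CPM (median 274) in brain (log2 fold change -10.18 ± 0.78, adjusted p = 3.86e-09). It was at -12.80 without liver replicate 1 and brain replicate 5 and at -9.12 without livers 3, 5, 6 and 7. The kinase Camk2a, which forms much of the postsynaptic density of excitatory neurons, lay between 0.113 and 5.34 CPM (median 0.510) in liver and between 356 and 2220 CPM (median 1294) in brain, a log2 fold change of -10.02 ± 0.80 and an adjusted p of 7.21e-09. Camk2a, the vesicular glutamate transporter Slc17a7 and the postsynaptic protein Nrgn varied more among brains than Snap25 did, and Slc17a7 was at -10.57 ± 0.96, or -13.69 without liver replicate 1 and brain replicate 5 and -9.44 without livers 3, 5, 6 and 7. Nrgn lay between 2.47 and 6.40 CPM (median 3.03) in liver and between 45.9 and 352 CPM (median 249) in brain.

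Inhibitory neurons, peptides and transcription factors gave the same direction. All 10 inhibitory neuron markers and all 10 excitatory neuron markers were higher in brain. Sst, whose promoter is shown above, lay between 0 and 0.411 CPM (median 0) in liver and between 28.2 and 82.3 CPM (median 59.7) in brain, a log2 fold change of -9.21 ± 0.52 and an adjusted p of 9.97e-11 with 7 counts in all livers together. Of 19 tested peptide and monoamine genes 14 were higher in brain, among them cholecystokinin (Cck) at between 0 and 0.548 CPM (median 0) in liver and between 33.3 and 108 CPM (median 90.6) in brain (log2 fold change -9.89 ± 0.62, or -11.20 without liver replicate 1 and brain replicate 5). Maob, which breaks down monoamines and is known as a liver enzyme too, was higher in liver (2.62 ± 0.40), at between 24.6 and 206 CPM (median 125) in liver and between 15.2 and 28.1 CPM (median 18.8) in brain. Of 28 neural transcription factors 26 were higher in brain, and the exceptions were Nfia (0.64 ± 0.18) and Rest, the repressor of neuronal genes outside the nervous system, at between 63.7 and 107 CPM (median 76.2) in liver and between 9.34 and 13.5 CPM (median 12) in brain and a log2 fold change of 2.76 ± 0.12 and an adjusted p of 6.01e-12.

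Glial markers were less uniform. All 12 markers of oligodendrocytes and myelin were higher in brain, 10 of them restricted. Myelin basic protein (Mbp), which holds the layers of myelin together, lay between 2.04 and 17.1 CPM (median 9.04) in liver and between 1545 and 2187 CPM (median 1744) in brain, a log2 fold change of -7.59 ± 0.43 and an adjusted p of 1.15e-10, or -8.66 without livers 3, 5, 6 and 7. Myrf, the factor that drives myelin genes, was the smallest of the 12 at -0.66 ± 0.29 (adjusted p = 0.0453); its call was lost when liver replicate 3, 5, 6 or 7 or brain replicate 3, 4, 5, 6, 7 or 8 was left out, with an adjusted p of up to 0.101, and it was not called without livers 3, 5, 6 and 7 (-0.12, adjusted p = 0.465) or without liver replicate 1 and brain replicate 5 together (-0.73). Of 12 astrocyte markers 10 were higher in brain, such as the glutamate transporter Slc1a2 at between 1.22 and 535 CPM (median 201) in liver and between 2330 and 4298 CPM (median 3267) in brain (log2 fold change -3.90 ± 0.89, adjusted p = 7.57e-04). The other 2, Agt, the precursor of angiotensin, and Aldh1l1, an enzyme of folate metabolism, are also made in hepatocytes and were higher in liver by 3.03 ± 0.41 and 4.42 ± 0.37 on the log2 scale. Of 8 markers of oligodendrocyte precursors 5 were higher in brain (62.5%, against 41.0% of all genes tested). Pdgfra, at between 26 and 66.6 CPM (median 45.9) in liver and between 36.5 and 72.4 CPM (median 46.1) in brain, was at a log2 fold change of -0.12 ± 0.23 that did not pass the test, but was at -0.73 (adjusted p = 0.00251) without livers 3, 5, 6 and 7.

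Some isozymes differed widely between the organs. Of 43 isozyme genes tested, 14 were higher in liver (32.6%, against 36.0% of all genes tested) and 20 in brain (46.5%, against 41.0%), so the counts were near the background. The median absolute log2 fold change was 3.43, against 1.22 over all genes. Because the list was chosen with earlier results of these data known, this size describes its members and is not a test. Hexokinase 1 (Hk1), which phosphorylates glucose and is saturated at low glucose, lay between 6.35 and 60.7 CPM (median 16.5) in liver and between 141 and 204 CPM (median 175) in brain. Its log2 fold change was -2.76 ± 0.43, or -4.24 without livers 3, 5, 6 and 7. Aldoc, the brain form of aldolase, lay between 9.32 and 32.7 CPM (median 17.6) in liver and between 321 and 578 CPM (median 481) in brain, a log2 fold change of -4.64 ± 0.24 and an adjusted p of 4.83e-11.

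**Figure D3:**
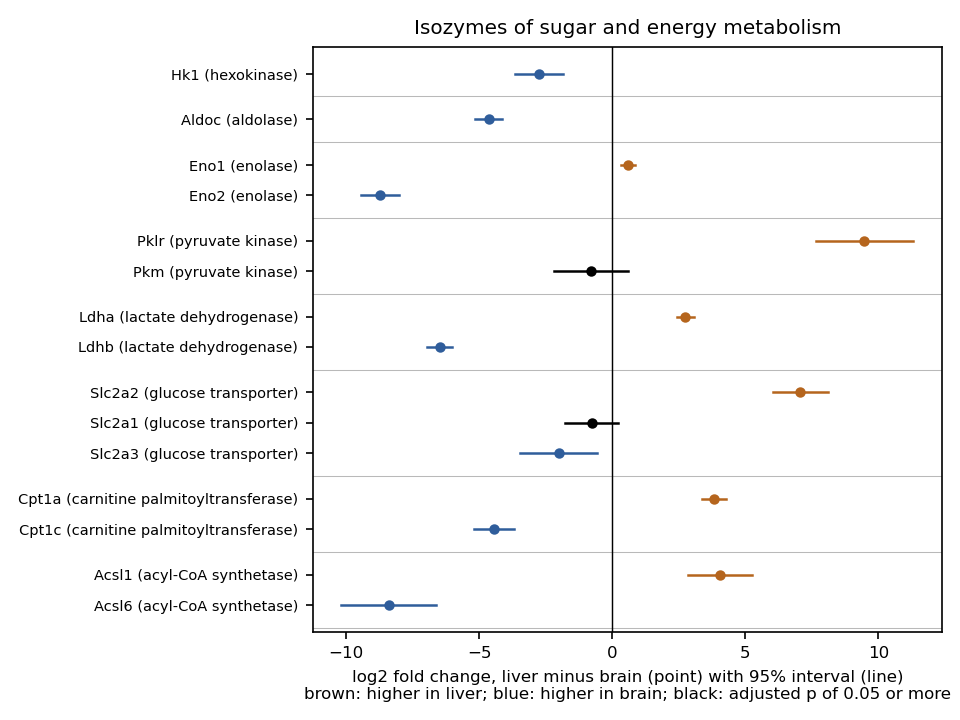
Log2 fold change (liver minus brain) with its 95% interval for the 15 isozyme genes named in the text, 8 livers against 8 brains. Pklr, Ldha, Slc2a2, Cpt1a, Acsl1 and Eno1 lie to the liver side, Hk1, Aldoc, Eno2, Ldhb, Slc2a3, Cpt1c and Acsl6 to the brain side, and Pkm and Slc2a1 are not called.

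Lactate dehydrogenase, which interconverts pyruvate and lactate, changed subunit. Ldha lay between 284 and 499.9 CPM (median 374) in liver and between 42.2 and 73 CPM (median 55.3) in brain (log2 fold change 2.74 ± 0.15, adjusted p = 9.91e-11), and Ldhb lay between 0.991 and 3.29 CPM (median 1.82) in liver and between 157 and 177 CPM (median 167) in brain (log2 fold change -6.49 ± 0.23, adjusted p = 6.10e-13). Per kb of exon, Ldha was at 115 CPM per kb in liver and 17.3 in brain, and Ldhb at 1.19 and 107, so the subunit with the higher level differed by organ. Neuron-specific enolase (Eno2) had a log2 fold change of -8.72 ± 0.34 while the common Eno1 was 1.50-fold higher in liver (0.58 ± 0.13). The glucose transporter of hepatocytes, Slc2a2, was at 7.07 ± 0.49 and that of neurons, Slc2a3, at -2.01 ± 0.68 with overlapping groups, and at -5.02 (adjusted p = 6.88e-10) without livers 3, 5, 6 and 7. Pyruvate kinase of liver, Pklr, had 9.45 ± 0.86; 22.0% of its exon length overlaps Hcn3 on the other strand. Its partner Pkm lay between 17.9 and 694 CPM (median 129) in liver and between 364 and 442 CPM (median 427) in brain and was not called (-0.80 ± 0.65, adjusted p = 0.269), but was at -3.87 (adjusted p = 1.46e-10) without livers 3, 5, 6 and 7, the libraries rich in macrophage markers.

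Genes of fatty acid metabolism had their own pairs. Cpt1a, the gate of fatty acids into mitochondria, lay between 227 and 608 CPM (median 381) in liver and between 23.2 and 32.4 CPM (median 26.1) in brain (log2 fold change 3.81 ± 0.21, adjusted p = 9.96e-11), and its neuronal relative Cpt1c was at -4.45 ± 0.36. Acyl-CoA synthetase split likewise between Acsl1 (4.05 ± 0.57) and Acsl6 (-8.38 ± 0.84, or -10.30 without liver replicate 1 and brain replicate 5). Fatty acid binding proteins, small carriers in the cytosol, were tested in 7 of 13 cases. Of these, 4 were higher in liver (57.1%, against 36.0% of all genes tested) and 1 in brain (14.3%, against 41.0%). Fabp1, the form of hepatocytes, lay between 57.3 and 1028 CPM (median 428) in liver and between 0 and 0.171 CPM (median 0) in brain with 4 counts in all brains together (log2 fold change 13.02 ± 1.05, adjusted p = 6.09e-09), and Fabp3, the heart and brain form, was at -5.47 ± 0.33. Fabp5 and Fabp7 were not called, at -0.43 ± 0.39 and 1.23 ± 0.61, although Fabp7 passed the test at 1.40 to 1.42 when liver replicate 1, 2 or 4 was left out and was at -0.87, not called, without livers 3, 5, 6 and 7.

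Ketone bodies are made in liver mitochondria, interconverted by Bdh1, carried across membranes by monocarboxylate transporters and used through Oxct1 and Acat1. Of 17 genes tested in this list, 12 were higher in liver (70.6%, against 36.0% of all genes tested) and 4 in brain (23.5%, against 41.0%), the latter being Oxct1 and 3 histone deacetylases. Acat1, the mitochondrial thiolase that acts at the ends of both synthesis and use, lay between 77.7 and 333 CPM (median 202) in liver and between 52.3 and 61.6 CPM (median 55.7) in brain, a log2 fold change of 1.87 ± 0.28 and an adjusted p of 1.11e-05. Bdh1 lay between 26.8 and 222 CPM (median 116) in liver and between 25.2 and 29.5 CPM (median 26.8) in brain, a log2 fold change of 2.09 ± 0.37 and an adjusted p of 7.91e-05. No brain reached the livers in Acat1, whereas in Bdh1 liver replicate 3 was as low as the brains.

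**Figure D4:**
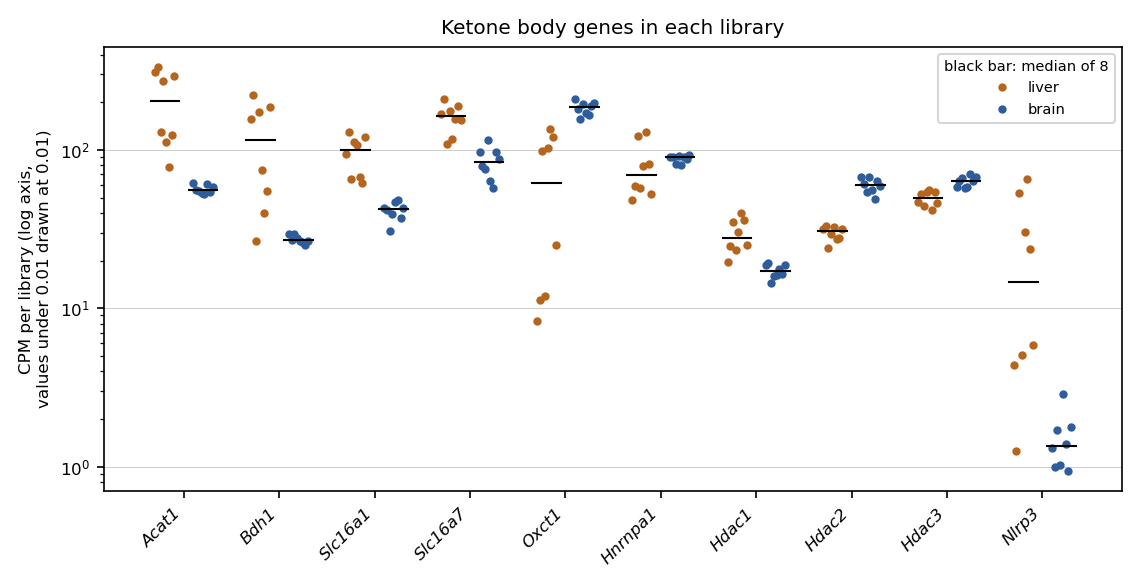
CPM of 10 genes of ketone body metabolism, transport and signalling in each of 8 livers and 8 brains, on a log axis with a floor of 0.01. Acat1 is higher in every liver, Oxct1 is higher in every brain, and the livers fall into a lower and a higher group in Oxct1.

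Oxct1 (ENSMUSG00000022186, chr15:4026383-4155344), the transferase that commits ketone bodies to oxidation, was higher in brain. It lay between 8.36 and 135 CPM (median 61.8) in liver and between 157 and 209 CPM (median 185) in brain, a log2 fold change of -1.51 ± 0.53 and an adjusted p of 0.0152. No liver reached the brains, but the livers were spread widely: replicates 1, 2, 4 and 8 were at 8.36 to 25 CPM and replicates 3, 5, 6 and 7 at 98.6 to 135 CPM. Without the latter the log2 fold change was -3.69 (adjusted p = 8.02e-09) and in the KD libraries it was -2.84. Which cells held Oxct1 RNA in those livers was not tested; the Kupffer cell list held 0.311 to 0.471% of their counts and 0.0540 to 0.143% of the counts of the other livers.

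Transporters and targets of ketone bodies differed in both directions. The monocarboxylate transporters Slc16a1 and Slc16a7 were higher in liver by 1.20 ± 0.16 and 0.93 ± 0.16 on the log2 scale. Slc16a3, a lactate exporter of glycolytic cells, was called higher in liver at 2.51 ± 0.74, with between 1.81 and 85.3 CPM (median 6.43) in liver and between 2.91 and 4.91 CPM (median 3.45) in brain, and turned to -0.73 without livers 3, 5, 6 and 7. The histone deacetylases that beta-hydroxybutyrate is known to inhibit moved apart: Hdac1 was higher in liver (0.77 ± 0.14) and Hdac2, Hdac3 and Hdac8 higher in brain (-1.01 ± 0.09, -0.35 ± 0.08 and -0.74 ± 0.14). Hnrnpa1, an RNA-binding protein known to bind beta-hydroxybutyrate, lay between 48.4 and 129 CPM (median 69.5) in liver and between 80.7 and 93.2 CPM (median 89.9) in brain and was not called (-0.16 ± 0.19), but was at -0.67 (adjusted p = 8.20e-07) without livers 3, 5, 6 and 7. The inflammasome sensor Nlrp3 lay between 1.25 and 65.7 CPM (median 14.8) in liver and between 0.940 and 2.85 CPM (median 1.35) in brain, with overlapping groups and a log2 fold change of 3.99 ± 0.71 and an adjusted p of 7.28e-05, or 1.49 (adjusted p = 0.00223) without livers 3, 5, 6 and 7. The receptor gene Hcar2 did not pass the filter on low counts and was at between 0.822 and 57.9 CPM (median 3.49) in liver and between 0.0708 and 0.685 CPM (median 0.445) in brain.

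Of 34 genes of fatty acid oxidation, 32 were higher in liver and none in brain, with a median of 2.93. The mitochondrial thiolase Acaa2 lay between 107 and 673 CPM (median 379) in liver and between 6.51 and 10.6 CPM (median 7.81) in brain (log2 fold change 5.50 ± 0.45, adjusted p = 9.32e-09). Synthesis of fatty acids and cholesterol gave 28 of 35 higher in liver and 5 in brain. Its 2 stearoyl-CoA desaturases, which put the first double bond into fatty acids, were used in opposite organs. Scd1 lay between 1411 and 20320 CPM (median 9322) in liver and between 209.8 and 369.5 CPM (median 312) in brain (log2 fold change 4.87 ± 0.47, adjusted p = 7.87e-08), and Scd2 lay between 13.9 and 230.1 CPM (median 39.7) in liver and between 1038 and 1482 CPM (median 1174) in brain (log2 fold change -3.86 ± 0.60, adjusted p = 1.87e-05, or -6.10 without livers 3, 5, 6 and 7). Elongases split too, with Elovl2 at 5.01 ± 0.49 and Elovl4, which makes very long chains for membranes of neurons, at -8.56 ± 0.60, or -10.27 without liver replicate 1 and brain replicate 5 and -7.53 without livers 3, 5, 6 and 7. Hmgcs1, a cytosolic enzyme that feeds cholesterol synthesis, was not called at between 42.8 and 271 CPM (median 163) in liver and between 95.3 and 139 CPM (median 117) in brain (0.40 ± 0.27, or 0.55 with an adjusted p of 0.0220 without liver replicate 3 and 0.78 with 2.14e-04 without livers 3, 5, 6 and 7).

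Genes of mitochondrial respiration had small differences, and their counts depended on the scaling and on the livers used. Of 28 citrate cycle genes, 13 were higher in liver (46.4%, against 36.0% of all genes tested), 5 in brain (17.9%, against 41.0%) and 5 at a like level, with a median of 0.30; among the 49 genes for respiratory chain subunits encoded in the nucleus, 22 were higher in liver (44.9%) and 1 in brain (2.04%), with a median of 0.44 and 3 differences above 2-fold. Scaling by total counts moved the median of all genes from -0.07 to -0.32 and these counts to 11 against 9 and 12 against 6. Without livers 3, 5, 6 and 7 they were 22 against 3 and 45 against 1. Atp5a1, a subunit of ATP synthase, lay between 196 and 638 CPM (median 425) in liver and between 219.5 and 277 CPM (median 265) in brain (log2 fold change 0.66 ± 0.22, adjusted p = 0.0133), a call lost under total counts (0.35, adjusted p = 0.0742) and with the replicate number as a block (0.54, adjusted p = 0.0540). Cox8a of complex IV was at a like level (0.01 ± 0.16), but at 0.36 (adjusted p = 0.00174) without livers 3, 5, 6 and 7. Idh3a, of the citrate cycle, was higher in brain (-1.61 ± 0.11) and Suclg2 higher in liver (3.84 ± 0.31). The list of the mitochondrial genome had 13 genes, of which 7 passed the filter. Among the others, mt-Atp6 was at 0.341 CPM in liver and 0.319 CPM in brain. None of the 7 was called by edgeR, and all 7 were higher in liver without livers 3, 5, 6 and 7. mt-Co1, at 0.75 without these livers, lay between 5039 and 11110 CPM (median 7635) in liver and between 5934 and 6634 CPM (median 6302) in brain. The mitochondrial share of counts was 2.53 ± 0.847% in liver and 2.58 ± 0.128% in brain (exact permutation test, two-sided, p = 0.884). This share holds only the counts assigned to mitochondrial genes and is thus a partial measure of mitochondrial RNA.

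Genes often used as references between samples differed in how close the organs were. Of 22 reference genes of quantitative PCR, 15 were higher in liver (68.2%, against 36.0% of all genes tested) and 3 in brain (13.6%, against 41.0%). At a like level were 3, among them Hprt and Ppia, as were 6.85% of all genes tested. Without livers 3, 5, 6 and 7 Hprt was called higher in brain (-0.33, adjusted p = 0.0202). Ppia lay between 119.9 and 182 CPM (median 139.8) in liver and between 117 and 157 CPM (median 149.9) in brain, with a log2 fold change of -0.00 ± 0.10. Gapdh was 1.27-fold higher in liver, at between 595 and 1064 CPM (median 760.1) in liver and between 540.5 and 684 CPM (median 630.0) in brain (log2 fold change 0.34 ± 0.12, adjusted p = 0.0162). Actb was 2.53-fold higher in liver (1.34 ± 0.24) and 0.66 on the log2 scale without livers 3, 5, 6 and 7. B2m, the light chain of MHC class I, which is also used as a reference, lay between 903 and 1850 CPM (median 1338) in liver and between 82.7 and 159.9 CPM (median 116) in brain and was 11.8-fold higher in liver (log2 fold change 3.56 ± 0.17, adjusted p = 1.34e-11). Tuba1a, a tubulin of neurons, was lower in liver, with a log2 fold change of -4.60 ± 0.38 (-5.84 without livers 3, 5, 6 and 7), and so was Ywhaz, with -1.29 ± 0.18. Scaling by total counts left 11 of the 22 higher in liver and 5 higher in brain.

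The RNA of protein synthesis was higher in liver. Of 56 cytosolic ribosomal protein genes, 55 were higher in liver, 28 of them by more than 2-fold, and the list held 0.684% of liver counts and 0.379% of brain counts. Rplp0, of the ribosomal stalk, lay between 254 and 426 CPM (median 321) in liver and between 71.3 and 89.3 CPM (median 78.9) in brain (log2 fold change 2.06 ± 0.11, adjusted p = 6.68e-11), and the elongation factor Eef1a1 was at 1.63 ± 0.12. Its relative Eef1a2, used in neurons and muscle, was among the 10 highest brain-restricted genes, with between 0 and 0.822 CPM (median 0.0887) in liver and between 463 and 570.2 CPM (median 517) in brain and a log2 fold change of -11.78 ± 0.52. Folding enzymes gave 25 of 32 higher in liver and 1 in brain: P4hb, of the endoplasmic reticulum, was at 3.94 ± 0.19, the cytosolic Hsp90ab1 at 0.55 ± 0.15 and its inducible relative Hsp90aa1 at -0.90 ± 0.25. Of 34 proteasome genes 25 were higher in liver (73.5%, against 36.0% of all genes tested) and 1 in brain (2.94%, against 41.0%), and under total counts 16 and 3. At a like level were 7 of the 34, as were 6.85% of all genes tested. Psmb9, a subunit of the immunoproteasome, differed most in the list, with 4.52 ± 0.38.

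Genes of transcription and splicing were near the shares over all genes. Of 43 genes of RNA polymerase II and splicing 15 were higher in liver (34.9%, against 36.0%), 13 in brain (30.2%, against 41.0%) and 6 at a like level, and their median was 0.01. In the KD libraries 11 were higher in liver and 19 in brain. The list held 0.288 ± 0.0342% of liver counts and 0.365 ± 0.00814% of brain counts. Members specific to one organ were among them, with the neuronal splicing factor Rbfox1 at between 0 and 3.29 CPM (median 0.194) in liver and between 208 and 387 CPM (median 312) in brain (-8.76 ± 0.69) and the epithelial one Esrp2 at between 29.4 and 188 CPM (median 114) in liver and between 0.853 and 3.31 CPM (median 1.58) in brain (6.09 ± 0.52). Of 20 clock genes 6 were higher in liver, as were 36.0% of all genes tested, and 11 in brain (55.0%, against 41.0%): the receptor Rorb lay between 0 and 4.79 CPM (median 0.178) in liver and between 79.3 and 205 CPM (median 124) in brain (-7.71 ± 0.81, or -9.66 without liver replicate 1 and brain replicate 5). Both organs were collected in the dark phase according to the study, but the hour is not given in the sources used here, and its part in the clock genes was not tested.

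The like-level genes with the most RNA per kb included RNAs and proteins that act on RNA in the nucleus. Malat1, a long noncoding RNA of nuclear speckles, lay between 5135 and 6185 CPM (median 5695) in liver and between 5511 and 6499 CPM (median 6073) in brain, and Rn7sk, the RNA that holds the elongation factor P-TEFb inactive, lay between 556 and 757 CPM (median 699) in liver and between 665 and 861 CPM (median 731) in brain. Their log2 fold changes were -0.09 ± 0.12 and -0.17 ± 0.10. Per kb of exon Rn7sk was the higher of the pair, with 2024 CPM per kb in liver and 2272 in brain, against 811 and 860.3 for Malat1. The helicase Ddx5 (0.09 ± 0.08), the speckle protein Srrm2 (0.04 ± 0.12) and clathrin heavy chain Cltc (-0.13 ± 0.15) were also among the 10, and the livers and brains overlapped in all 5; without livers 3, 5, 6 and 7 Cltc was called at -0.49 (adjusted p = 5.64e-05). Neat1, the RNA that builds paraspeckles and neighbours Malat1 in the genome, was in contrast restricted to liver by the 32-fold rule, at between 2718 and 11450 CPM (median 5261) in liver and between 156 and 252 CPM (median 174) in brain (log2 fold change 5.11 ± 0.38, adjusted p = 2.93e-09).

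Immune genes were higher in liver with few exceptions. All 17 genes of MHC class I presentation, all 10 of class II and all 30 interferon-stimulated genes were called higher in liver, with medians of 4.14, 5.31 and 3.15, and so were 35 of 39 tested cytokines, sensors and inflammasome genes, against 36.0% of all genes tested. The classical class I heavy chain H2-D1 lay between 321 and 1004 CPM (median 607) in liver and between 24.5 and 42.6 CPM (median 32.4) in brain (log2 fold change 4.27 ± 0.23, adjusted p = 6.81e-11), and H2-Q10, a secreted class I protein of liver, lay between 197 and 1956 CPM (median 1010) in liver and between 0 and 1.03 CPM (median 0.129) in brain (11.87 ± 0.80). The interferon-inducible GTPase Iigp1 was at between 167.7 and 566 CPM (median 406) in liver and between 1.87 and 7.13 CPM (median 4.02) in brain (6.53 ± 0.35). For these 3 genes every liver was above every brain by a wide margin.

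**Figure D5:**
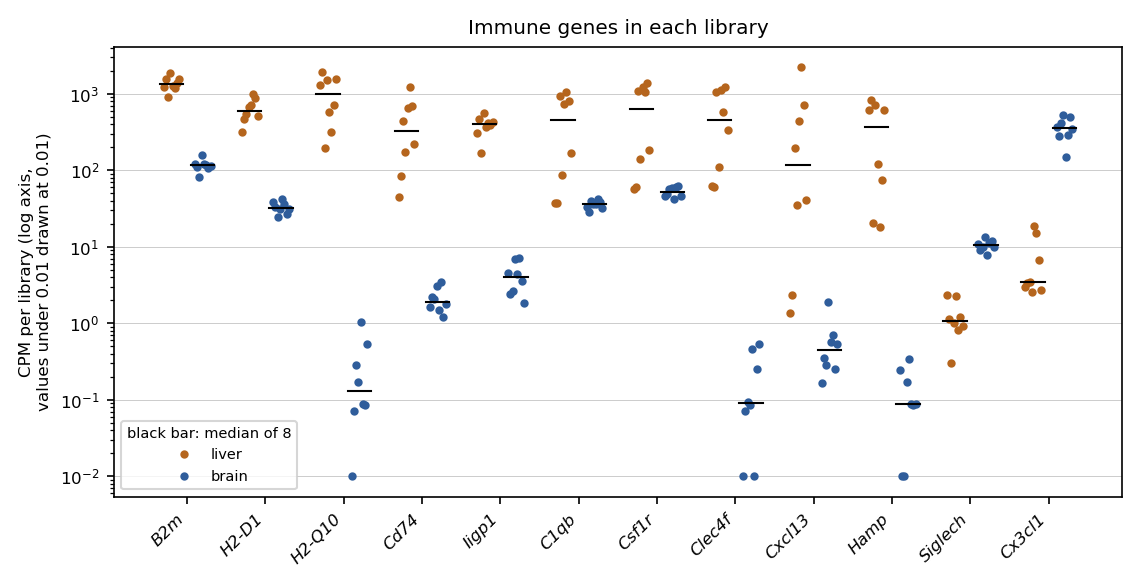
CPM of 12 immune genes in each of 8 livers and 8 brains, on a log axis with a floor of 0.01. B2m, H2-D1, H2-Q10 and Iigp1 separate the organs, whereas C1qb, Csf1r and Cxcl13 spread over the livers and reach down to the brains.

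Class II and cytokine genes spread much more among livers. Cd74, the chain that guards class II molecules, lay between 44.8 and 1246 CPM (median 330.2) in liver and between 1.20 and 3.48 CPM (median 1.93) in brain (log2 fold change 7.70 ± 0.70, adjusted p = 3.64e-08, or 5.93 without livers 3, 5, 6 and 7), with livers 1, 2, 4 and 8 at 44.8 to 220.5 CPM and livers 3, 5, 6 and 7 at 439.9 to 1246 CPM. Without the latter, 7 of 10 class II genes were called higher in liver with a median of 3.09, 28 of 30 interferon genes with 2.47, 30 of 39 cytokine genes with 2.05, and all 17 class I genes with 3.79. Cathepsin S (Ctss) and legumain (Lgmn), proteases of antigen processing, were then no longer called (2.48 ± 0.59 to 0.06 and 2.56 ± 0.60 to 0.07). The B cell chemokine Cxcl13 lay between 1.37 and 2219 CPM (median 118) in liver and between 0.165 and 1.88 CPM (median 0.444) in brain, a wide range in liver that reached down to the brains, and its log2 fold change of 9.57 ± 1.50 was 5.03 without livers 3, 5, 6 and 7. Hepcidin (Hamp), the hormone of iron balance, lay between 18.2 and 835 CPM (median 365) in liver and between 0 and 0.343 CPM (median 0.0880) in brain (11.47 ± 1.14). Cx3cl1, the chemokine by which neurons signal to microglia, was 1 of 2 members higher in brain, at between 2.59 and 18.9 CPM (median 3.46) in liver and between 152 and 536 CPM (median 354) in brain (log2 fold change -5.68 ± 0.52, adjusted p = 3.87e-08, or -6.92 without livers 3, 5, 6 and 7). Il6, Tnf, Il10, Ccl4 and Cxcl2 did not pass the filter on low counts.

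Markers of the resident macrophages of each organ were partly shared. All 9 tested Kupffer cell markers were higher in liver, 7 of them restricted, and the lectin Clec4f lay between 60.8 and 1243 CPM (median 459) in liver and between 0 and 0.534 CPM (median 0.0898) in brain, a log2 fold change of 11.57 ± 1.02 and an adjusted p of 2.26e-08, or 9.56 without livers 3, 5, 6 and 7. Of 12 microglia markers 6 were higher in liver, against 36.0% of all genes tested, and 3 in brain, against 41.0%. The other 3 were not called. Those higher in liver are shared by macrophages, such as the receptor Csf1r at between 57.5 and 1395 CPM (median 628) in liver and between 42.6 and 63.4 CPM (median 52.8) in brain (log2 fold change 3.62 ± 0.65, adjusted p = 8.41e-05) and Tyrobp (3.35 ± 0.66). The microglial lectin Siglech lay between 0.305 and 2.33 CPM (median 1.07) in liver and between 7.88 and 13.6 CPM (median 10.5) in brain and was higher in brain (log2 fold change -3.08 ± 0.30, adjusted p = 7.63e-08). The list held 0.169 to 0.191% of the counts of livers 3, 5, 6 and 7, 0.0149 to 0.0264% of those of the other livers and 0.0271 to 0.0345% of those of the brains. Without these 4 livers the list turned to 4 members higher in liver and 7 in brain, with its median going from 0.68 to -1.58; Csf1r was then at 1.06 and Tyrobp at 0.64 (adjusted p = 0.0234). Of the exon length of Csf1r, 15.1% overlaps Hmgxb3 on the other strand.

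Other cell types of the liver and blood were measured in the same way. Of 10 markers of sinusoidal endothelium 9 were higher in liver, among them the scavenger receptor Stab1 at between 115 and 351 CPM (median 186) in liver and between 11.4 and 22.8 CPM (median 13.6) in brain (3.66 ± 0.28), and of 12 stellate cell markers 10 were higher in liver and 1 in brain, with the retinol-storing enzyme Lrat at 6.51 ± 0.41. Only 3 of 10 neutrophil markers passed the filter and all 3 were higher in liver, but none without livers 3, 5, 6 and 7. S100a8 lay between 0.911 and 233 CPM (median 11.7) in liver and between 0.256 and 4.44 CPM (median 0.703) in brain. Its log2 fold change went from 5.53 ± 1.27 to 0.19 without these livers. In the brains the neutrophil list held 0.00136 to 0.0035% of counts and the lymphocyte list 0.000345 to 0.0019%. A member too low in the brains could pass the filter only through the livers, so its direction was set in advance. Of 14 lymphocyte markers 6 were tested and all 6 were higher in liver, and 5 without livers 3, 5, 6 and 7. Cd8a, of cytotoxic T cells, was at 4.33 ± 0.63 and 2.74. Of 8 red blood cell genes 6 were higher in liver, and 3 without them, with Hbb-bs, a chain of hemoglobin, at 1.51 ± 0.38 and 0.70; blood left in the organs was not measured otherwise. Brain endothelium gave 4 of 12 markers higher in liver (33.3%, against 36.0% of all genes tested), among them Cdh5 of all endothelium (4.0 ± 0.47, or 2.57 without these 4 livers), and 5 in brain (41.7%, against 41.0%), shares near those of all genes, among them Spock2 at -8.26 ± 0.23. Slc2a1, the glucose transporter of the blood-brain barrier, was not called (-0.76 ± 0.47), was higher in brain at -1.43 (adjusted p = 0.00103) without liver replicate 3 alone, and was at -2.13 without these 4 livers. Of 9 tested choroid plexus and ependyma genes 6 were higher in brain (66.7%, against 41.0% of all genes tested), with Foxj1 of ciliated cells at -3.50 ± 0.34. Of 10 bile duct markers 5 were tested. Of these, 2 were higher in liver, against 36.0% of all genes tested, and 1 in brain, against 41.0%. The marker higher in brain was Sox9, which astrocytes also make (-0.71 ± 0.10). Without livers 3, 5, 6 and 7 the counts were 1 in liver and 2 in brain.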

How the data were processed

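Liver and whole brain of 26-month-old male mice on CD were compared, 8 libraries each, with the KD libraries of the same age as a further check. The authors isolated total RNA, removed ribosomal RNA, sequenced it on a NovaSeq, used Trimmomatic for trimming, STAR for alignment to GRCm38 from an Ensembl archive and RSEM for counting; tool versions, the annotation file and the strand setting are not given in the sources used here. As deposited, the table holds unnormalized counts of 54446 identifiers in 44 libraries, of which 54409 had a symbol in GENCODE vM21, and 0 columns lacked a sample. Where strand was not used, overlapping genes share reads, and near-identical copies (class I genes, globins, cytochromes) are uncertain.

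Counts were tested in R 4.3.3 with edgeR 4.0.16 (filterByExpr, TMM, quasi-likelihood F test, Benjamini-Hochberg over all genes tested), 8 against 8 without a block, and folds are ratios of mean CPM. Errors of log2 fold changes are SE, those of shares SD. The common biological coefficient of variation was 0.405. Shares of counts were compared with exact permutation tests. Alternatives were RLE, total count and upper quartile scaling, 2 other filters, DESeq2 1.42.0 (the tool of the study), limma 3.58.1, a replicate block, the mitochondrial genome left out, fits without libraries above 0.01% (liver) or 0.5% (brain) of counts in Gm10800, and each library left out. A fit without livers under 2% mitochondrial counts was chosen after seeing the data. The script was tested on simulated data. Because nothing says that samples of a group came from separate cages or days, p-values measure the spread between these mice.

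The comparison and 49 gene lists were chosen with earlier results of these data known, so lists are described by counts, medians and shares. Permutation tests were also run on the list shares. Because the lists were not chosen blind to the data, those p-values are not reported here, apart from that of the mitochondrial genome. Genes named are, by rule, in each list the 2 highest per kb in each organ and the largest call in each direction, all ketone body, fatty acid binding, isozyme and reference genes, and the highest restricted and like-level genes; others are said to be chosen after their values were seen. Some genes under this rule are not reported here. Lengths are union exons of GENCODE vM21. Python 3.11.15, pandas 2.3.3 and matplotlib 3.10.9 were used.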

Additional observations from a re-analysis of the deposited data

Results flagged for a closer look

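Among 253 groups of 8 values for the genes named in the report, 35 held 1 library farther from the other libraries than Dixon's test allows at 95%. Chance flags about 1 in 20 such groups, and the libraries were not spread evenly over them. Values are in CPM.

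Liver replicate 1 was the highest liver for genes of the brain: Apod at 1.23, Eno2 at 3.01, Elovl4 at 1.23, Rbfox1 at 3.29, Rorb at 4.79, Snap25 at 3.42, Camk2a at 5.34, Slc17a7 at 2.74, Gria1 at 3.56, Kcna1 at 2.06 and Acsl6 at 4.66. Brain replicate 5 was the highest brain for genes of the liver and for Nlrp3: Hc at 3.20, Apob at 3.42, Cps1 at 3.31, Hnf4a at 1.37, Pklr at 1.37 and Nlrp3 at 2.85. It was the lowest brain for Eno2 at 374, Idh3a at 122 and Hsp90ab1 at 500. These are the 2 libraries with 1.61% and 1.22% of their counts in Gm10800, and the part of that in these values was not tested.

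Brain replicate 6 was the highest brain for Apoe at 512, Scd2 at 1482, P4hb at 80.5, S100a8 at 4.44, Agt at 131, Spock2 at 795 and Foxj1 at 17.2. Brain replicate 4 was the highest brain for Cxcl13 at 1.88. Liver replicate 3 was the highest liver for Slc2a1 at 208, Rest at 107, Slc16a3 at 85.3 and Slc2a3 at 103. Liver replicate 6 was the highest for Cxcl13 at 2219 and Hcar2 at 57.9, and liver replicate 5 for Lrat at 154.

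The interaction test of edgeR called Gm19531 (liver minus brain more positive in KD by 2.98 on the log2 scale), Gm38359 (3.08) and Gm10471 (3.69), each with an adjusted p of 0.0418. All are predicted genes of unknown role. With RLE size factors 5 and 1 genes were called and with DESeq2 1112 and 269, so the calls depended on the setting.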

How the results depend on the processing

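The 10 other settings of the fit, the KD libraries, the fit without livers 3, 5, 6 and 7 (added after the data were seen) and the 16 fits with 1 library left out called 4943 to 8979 genes higher in liver and 4581 to 10869 higher in brain. A minimum of 10 counts in every library had the lowest of both (4943 and 4581 of 12941 genes tested) and left 148 liver-restricted and 118 brain-restricted genes with 0 not seen in the other organ, since it removes genes absent from 1 organ. The KD libraries gave 982 brain-restricted genes, and 34 liver-restricted genes not seen in brain and 29 brain-restricted genes not seen in liver. These last counts were 38 and 1230 without the libraries high in Gm10800, 54 genes were not seen in brain without livers 3, 5, 6 and 7, and leaving out 1 library at a time gave 14 to 34 (without brain replicate 5) and 280 to 1201 (without liver replicate 1). Genes at a like level numbered 1066 to 1740. The interaction with diet gave 5 and 1 genes with RLE size factors and 1112 and 269 with DESeq2, shifted in KD toward liver and toward brain. The cause was not tested. The difference in mitochondrial share, -0.049 percentage points, ranged from -0.255 to 0.0724 over the libraries left out, on both sides of zero. The log2 fold change of Vwf, not called, ranged from -0.90 to 0.07 (without brain replicate 3) over the libraries left out, and was 0.39 in KD and -1.39 without livers 3, 5, 6 and 7. Of 2751 values of named genes under RLE, total counts, upper quartile, DESeq2, the replicate block and each library left out, 2721 were counted as the same. This meant the same direction and side of the threshold. For like-level genes it meant instead a log2 fold change that moved by less than the SD between libraries.

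Total counts moved the median of all genes by more than 0.1 (from -0.07 to -0.32), and the like-level genes with it: Rn7sk to -0.43, Malat1 to -0.32 and Ppia to -0.26; Gapdh was then not called (0.10). The replicate number as a block gave 6788 genes higher in liver, 8475 higher in brain, 739 and 2240 restricted genes and 1268 at a like level. The deviations of livers and brains of the same number correlated weakly (r from -0.0326 to 0.0908, 3 of 8 livers correlating best with the brain of their own number). Because different organs of a mouse need not deviate together, this cannot tell whether equal numbers mean the same mouse. Depth limits the genes called not seen, since 3 counts summed over 8 libraries are the most they may have.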
